A study of Mus musculus with 62 samples.

Results

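The glycolysis genes described here are 10 of the 11121 genes counted in mouse brain tissue: Hk1, Gpi1, Pfkm, Aldoa, Gapdh, Pgk1, Eno2, Pkm, Ldha and Ldhb. They were taken by name, as the counted genes whose Ensembl identifier carries these symbols. Regions sampled were the prefrontal cortex, PFC, and, in the ventral striatum, the nucleus accumbens, NAc. RNA came from wild-type C57BL/6j mice aged 15 weeks, all male by the study's methods. The mice were either unstressed controls (CTR) or had gone through multimodal chronic restraint stress (mCRS), with tissue taken days after the last session. There were 15 PFC libraries from CTR mice, 15 PFC libraries from mCRS mice, 16 NAc libraries from CTR mice and 16 NAc libraries from mCRS mice. Libraries were made by BRB-seq, a method that barcodes each sample while the RNA is copied from its poly(A) tail, so that samples can be pooled early and reads come from the 3′ ends of transcripts. Which PFC and NAc libraries came from the same mouse is not stated in the sources used here.

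Glycolysis splits glucose into pyruvate in the cytosol and yields ATP and NADH. Hexokinase, phosphofructokinase and pyruvate kinase catalyse its practically irreversible steps, and the other enzymes work close to equilibrium. Lactate dehydrogenase interconverts pyruvate and lactate, and its tetramers are built from an M subunit encoded by Ldha and an H subunit encoded by Ldhb. In the brain several steps have isozymes that differ between cell types. Aldolase C (Aldoc) and the H subunit are known from astrocytes and neurons, respectively, among other cells, and enolase 2 (Eno2) is the neuronal enolase.

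The sequences upstream of Ldha and Ldhb are shown because the read ratio of these subunits differed between the regions. They are the 250 bases before a RefSeq transcription start on GRCm38.p6, at chr7:46845554-46845803 on the plus strand for Ldha and at chr6:142507958-142508207 on the minus strand for Ldhb, written in the direction of transcription. Capitals mark ACGTG on either strand, a form of the core of the hypoxia response element, with overlapping matches merged. The other form, GCGTG, was not searched for, although the Ldhb window holds it.
Ldha: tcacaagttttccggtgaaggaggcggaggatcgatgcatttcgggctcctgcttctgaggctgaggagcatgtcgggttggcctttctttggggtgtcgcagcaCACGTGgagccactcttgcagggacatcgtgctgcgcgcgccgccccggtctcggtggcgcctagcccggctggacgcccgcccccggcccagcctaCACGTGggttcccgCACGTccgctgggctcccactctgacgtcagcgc
Ldhb: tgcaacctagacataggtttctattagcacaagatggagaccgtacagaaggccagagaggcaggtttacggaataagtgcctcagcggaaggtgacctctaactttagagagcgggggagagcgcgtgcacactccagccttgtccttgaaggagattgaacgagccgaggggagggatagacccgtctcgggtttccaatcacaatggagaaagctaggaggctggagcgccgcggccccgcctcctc
The Ldha window held 3 places with ACGTG, which began 145, 48 and 34 bases before the start, and the Ldhb window held none. Of 32851 starts in the reference, 16.6% held at least 1 match and 0.256% held 3 or more. Among the 18 starts listed for the 10 glycolysis genes, 7 held a match, and these belonged to 5 genes (Pfkm, Aldoa, Pgk1, Pkm and Ldha). Of all genes in the reference, 18.5% held a match at 1 start or more. The Aldoa matches, 202 and 126 bases before their starts, lie in overlapping windows and are the same place in the genome. A second start listed for Ldha held no ACGTG, but its window holds the form that was not searched for. The matches are letters in a window and say nothing of binding.

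All 10 genes had at least 1 count in every library, and all 10 passed the filter on low counts in each comparison. Library totals lay between 945286 and 4857359 counts. The 10 genes together took 0.417% to 0.631% of a library's counts, and their sums over all libraries ran from 9246 counts for Pgk1 to 277112 for Aldoa. Only uniquely mapped reads were counted, which matters for genes with processed pseudogenes. Of the 70-base windows in the last 1000 bases of their coding transcripts, 63.7% of those of Gapdh and 55.1% of those of Pgk1 had a perfect copy in a transcript of another gene, so the counts of both are uncertain. The share was 18.2% for Gpi1, 15.7% for Pfkm, 15.3% for Pkm, 14.8% for Ldhb, 4.50% for Ldha and 2.17% for Aldoa, and no window of Hk1 or Eno2 had a copy. For Pfkm the only such gene was Gm26513, which overlaps exons of Pfkm on the same strand and is not a copy elsewhere in the genome. Exons of Pkm are likewise overlapped by Gm49759, besides copies in a processed pseudogene.

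The tissues carried the markers of their labels. Summed over 7 markers of cortical excitatory neurons, the median was 1244 CPM (counts scaled to a common library size) in PFC CTR and 156 CPM in NAc CTR libraries, and over 9 markers of striatal projection neurons it was 622 and 4973 CPM. In the mCRS libraries the medians were 1088 and 130 CPM for the cortical list and 756 and 4677 CPM for the striatal list. NAc CTR replicate 7 stood apart, with 511 CPM for the striatal list and 2369 CPM for the hypothalamic genes (2 of 6 counted). So did NAc mCRS replicate 10, with 21591 CPM for the choroid plexus genes (2 of 5 counted). Medians of the hypothalamic sum were 192 and 316 CPM in NAc CTR and NAc mCRS libraries. Markers of the other region were present as well. The striatal sum reached 1262 CPM in PFC CTR replicate 11, and the cortical sum 515 CPM in NAc mCRS replicate 8. Some results, chiefly those of Ldha, Ldhb, Aldoa and Eno2, are given with and without NAc CTR replicate 7 and NAc mCRS replicate 10. Other values of their groups include them. In bulk tissue, fewer cells of a type and less RNA per cell cannot be told apart.

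**Figure D1:**
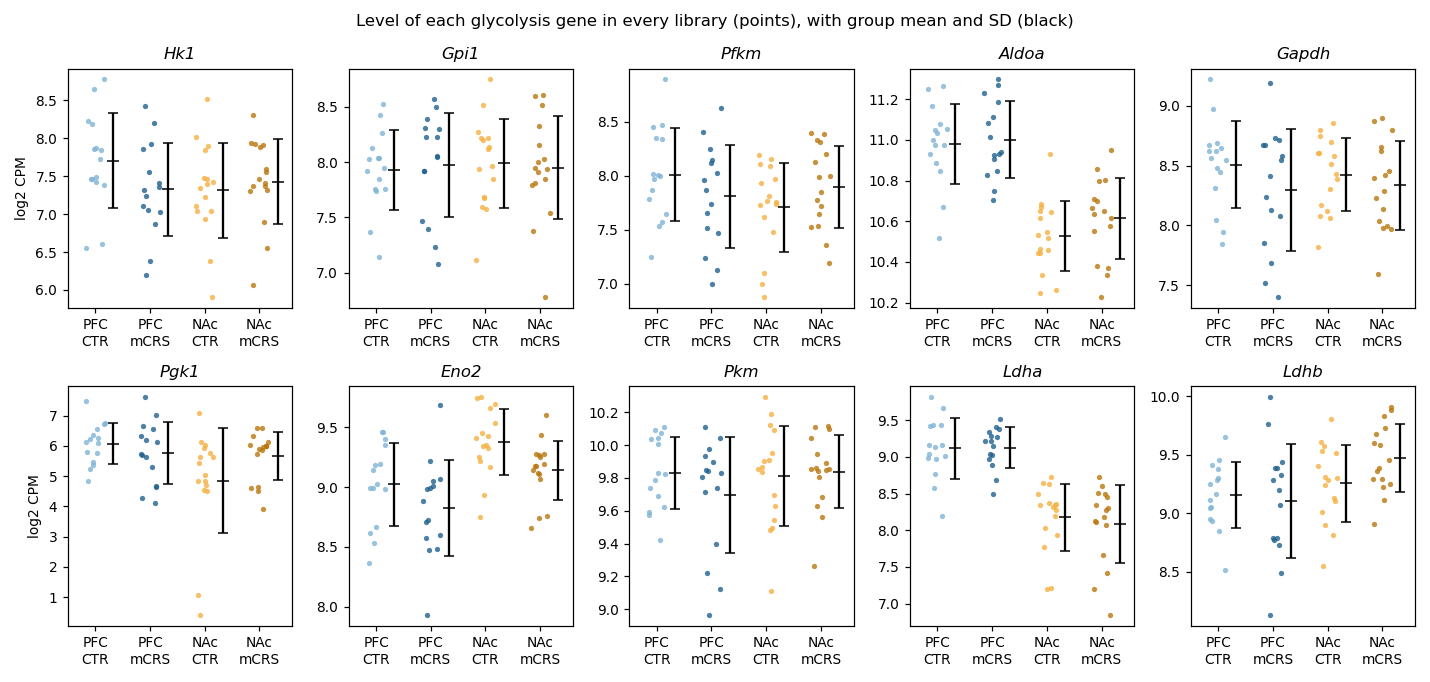
Level of the 10 glycolysis genes in each of the 62 libraries, as log2 CPM on a scale of its own for each gene (points), with the mean and SD of each group in black. For Ldha 13 of 15 PFC CTR libraries lay above the highest NAc CTR library, whereas the other genes except Aldoa overlapped widely between all 4 groups.

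Hexokinase 1 (Hk1, ENSMUSG00000037012, chr10:62268855-62379908) phosphorylates glucose at the outer mitochondrial membrane. Its level was 7.70 ± 0.63 (log2 CPM, mean ± SD, n = 15) in PFC CTR, 7.33 ± 0.61 (n = 15) in PFC mCRS, 7.31 ± 0.62 (n = 16) in NAc CTR and 7.43 ± 0.56 (n = 16) in NAc mCRS libraries. Glucose-6-phosphate isomerase (Gpi1, ENSMUSG00000036427, chr7:34201330-34230336), which forms fructose 6-phosphate, stayed between 7.93 and 7.99 in all 4 group means, with SDs of 0.36 to 0.47. The muscle-type phosphofructokinase (Pfkm, ENSMUSG00000033065, chr15:98092589-98132451) commits the sugar to glycolysis and had group means of 7.71 to 8.01 with SDs of 0.38 to 0.48. The group means of these upstream enzymes differed by less than 1 SD within a region.

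Aldolase A (Aldoa, ENSMUSG00000030695, chr7:126795234-126800751) cleaves fructose 1,6-bisphosphate. In PFC CTR libraries it ranged from 1466 CPM through a median of 2050.4 to 2465 CPM, and in NAc CTR libraries from 1215 through 1473 to 1952 CPM. In mCRS mice the lowest, median and highest values were 1667, 1964 and 2516 CPM in the PFC and 1199, 1599.95 and 1977 CPM in the NAc. PFC libraries were the high ones: 10 of 15 from CTR mice and 7 of 15 from mCRS mice exceeded the highest NAc library of their treatment, although the groups overlapped.

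Gapdh (ENSMUSG00000057666, chr6:125161715-125166467) makes the NADH of the pathway and is often used as a reference gene. Its group means were 8.51 ± 0.36, 8.29 ± 0.51, 8.42 ± 0.30 and 8.33 ± 0.37 (log2 CPM, mean ± SD) in PFC CTR, PFC mCRS, NAc CTR and NAc mCRS libraries. Phosphoglycerate kinase 1 (Pgk1, ENSMUSG00000062070, chrX:106187100-106203699), which makes the first ATP, was the least precisely measured. It had a single count in NAc CTR replicate 4 (0.560 CPM, with 1.33 CPM in replicate 1) against a group median of 37.3 CPM, and its SDs ran from 0.68 to 1.75. Pyruvate kinase (Pkm, ENSMUSG00000032294, chr9:59656368-59679375), which closes the pathway, had group means of 9.70 to 9.84 with SDs of 0.22 to 0.35. The counts do not separate its M1 and M2 splice forms.

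Enolase 2 (Eno2, ENSMUSG00000004267, chr6:124760053-124769673) ranged from 329 CPM through a median of 522 to 705 CPM in PFC CTR and from 243 through 473 to 822 CPM in PFC mCRS libraries. In the NAc it ranged from 430 through 667 to 862 CPM in CTR and from 403 through 577 to 775 CPM in mCRS libraries. The NAc CTR group was the highest and the PFC mCRS group the lowest, with overlap between all 4 groups.

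The lactate dehydrogenase genes had different patterns. Ldha (ENSMUSG00000063229, chr7:46841475-46855627) had lowest, median and highest values of 293, 560.1 and 898 CPM in PFC CTR, 359, 594 and 731 CPM in PFC mCRS, 146, 320.4 and 421 CPM in NAc CTR and 114, 298 and 423 CPM in NAc mCRS libraries. In both treatments 13 of 15 PFC libraries lay above the highest NAc library. Ldhb (ENSMUSG00000030246, chr6:142490249-142507957) had lowest, median and highest values of 365, 574 and 801 CPM in PFC CTR, 280.1, 587 and 1016 CPM in PFC mCRS, 374, 626 and 895 CPM in NAc CTR and 481, 686 and 958 CPM in NAc mCRS libraries. For Ldhb the 4 groups overlapped over most of their range.

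The spread between libraries was larger than counting alone gives. Across the 10 genes and 4 groups the observed SD of log2 CPM was 3.78 to 10.4 times the SD that counting error would give. Reads copied by PCR were not collapsed, so this counting error is a lower bound. For Ldha the observed SD was 0.41, 0.28, 0.45 and 0.53 in PFC CTR, PFC mCRS, NAc CTR and NAc mCRS libraries, against counting SDs of 0.042, 0.046, 0.057 and 0.064.

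The study asked what mCRS changes in each region. No glycolysis gene changed with mCRS in the PFC at an FDR below 0.05 (Benjamini-Hochberg over all genes, edgeR quasi-likelihood test), where 0 of 8916 genes did (0%). At an unadjusted p below 0.05 there were 314 genes (3.52%) and none of the 10, and DESeq2 called 5 genes, none of them a glycolysis gene. The log2 fold change was above 0 for 4 of the 10 genes, against 49.4% of all genes, with a median of -0.10 against -0.0070 over all genes. The largest difference was that of Hk1, -0.36 (SE 0.23, 95% confidence interval -0.82 to 0.11, unadjusted p = 0.130 and FDR = 0.9997 from edgeR). Ldha differed by 0.0023 (SE 0.14, interval -0.29 to 0.29) and Aldoa by 0.04 (SE 0.09, interval -0.14 to 0.23), so the data limit a change of Aldoa to at most 1.17-fold upward. The interval of Pgk1, -0.86 to 0.65, limits little.

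Other properties of the PFC libraries had different group means in CTR and mCRS mice, and these differences were not tested. The mtDNA share of counts was 12.88% ± 3.004 (SD, n = 15) in CTR and 16.04% ± 3.644 (SD, n = 15) in mCRS libraries, and the share of listed genes detected was 87.1% ± 4.4 and 82.3% ± 6.2. The share of counts in the 10 glycolysis genes was 0.561% ± 0.056 and 0.522% ± 0.058, with medians of 0.589% and 0.530%. No glycolysis gene was called with library sizes that left out the mtDNA genes, nor with a covariate for the share of genes detected.

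In the NAc, again none of the 10 genes changed at an FDR below 0.05, against 1 of 10141 genes in all (0.00986%). That gene was a choroid plexus marker, and no gene was called without NAc CTR replicate 7 and NAc mCRS replicate 10. At an unadjusted p below 0.05 there were 207 genes (2.04%). Eno2 was the member among these, at -0.24 (SE 0.11, interval -0.47 to -0.01, unadjusted p = 0.0391 and FDR = 0.9999 from edgeR). It was below the CTR median in 14 of 16 mCRS libraries, and the p was 0.0280 without NAc CTR replicate 7 and NAc mCRS replicate 10. The unadjusted p of Eno2 was below 0.05 in 20 of the 32 fits that left out a library, with -0.20 and p = 0.0832 from edgeR without NAc CTR replicate 2, and in 7 of 10 alternatives. Ldhb was at 0.21 (SE 0.12, interval -0.03 to 0.45, p = 0.0867 from edgeR) and Ldha at -0.07 (SE 0.17, interval -0.41 to 0.26). Without NAc CTR replicate 7 and NAc mCRS replicate 10 the difference of Ldha was -0.14 and that of Ldhb 0.17. Above 0 were 6 of the 10 genes, against 49.3% of all genes, with a median of 0.05 against -0.0061 over all genes.

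For none of the 10 genes was mCRS shown to act differently in PFC and NAc by the test of that difference itself (edgeR, 1 of 11025 genes called, 0.00907%, and 3.09% at an unadjusted p below 0.05). The smallest unadjusted p among them was 0.153, for Hk1, whose difference of differences was -0.45 (SE 0.31, interval -1.07 to 0.17). The intervals of Ldha, -0.37 to 0.50, and of Aldoa, -0.29 to 0.18, leave room for moderate differences.

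**Figure D2:**
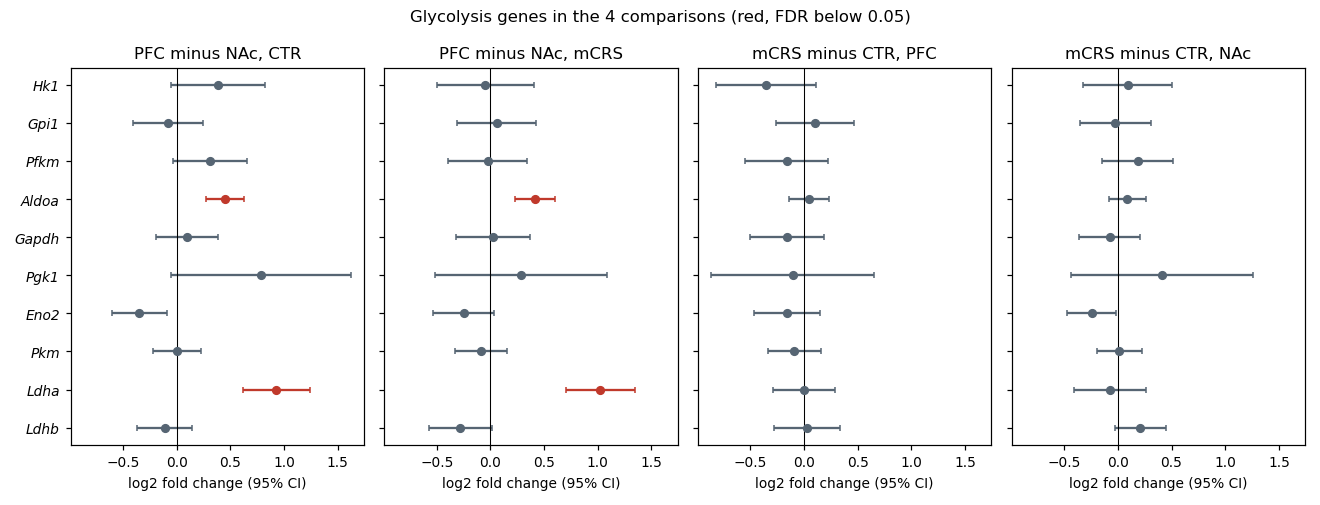
Log2 fold changes of the 10 glycolysis genes (points) with 95% confidence intervals (bars) in the 4 comparisons, with genes at an FDR below 0.05 in red. Ldha and Aldoa were past the threshold between regions in CTR and again in mCRS mice, and no gene was past it for mCRS in either region.

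Between regions, Ldha and Aldoa were higher in the PFC. In CTR mice, 2 of the 10 genes were called, against 628 of 9932 genes (6.32%) in all and 4.23% called higher in the PFC. Ldha was higher by 0.93 on the log2 scale, or 1.90-fold (SE 0.15, interval 0.62 to 1.24, FDR = 1.52e-05 from edgeR), and Aldoa by 0.45, or 1.36-fold (SE 0.09, interval 0.27 to 0.63, FDR = 0.000297). The mCRS mice share no library with the CTR mice and were fitted apart. There the same 2 genes were called, against 614 of 9452 genes (6.5%) in all and 4.49% called higher in the PFC, with Ldha at 1.02, or 2.03-fold (SE 0.16, interval 0.70 to 1.34, FDR = 3.52e-06), and Aldoa at 0.42, or 1.34-fold (SE 0.09, interval 0.23 to 0.61, FDR = 0.00149).

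Without NAc CTR replicate 7 the values in CTR mice were 0.88 for Ldha and 0.44 for Aldoa, and without NAc mCRS replicate 10 those in mCRS mice were 1.05 and 0.43. Leaving out each library in turn gave 0.88 to 0.98 for Ldha and 0.43 to 0.48 for Aldoa in CTR mice, and 0.96 to 1.07 and 0.37 to 0.44 in mCRS mice, with both genes called in each of the 31 fits of either treatment.

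The other 8 genes were not called between regions by edgeR. Eno2 was lower in the PFC by 0.35 in CTR mice (log2 fold change -0.35, SE 0.13, interval -0.60 to -0.09, unadjusted p = 0.00877, FDR = 0.107), and its FDR was 0.0106 with DESeq2 and 0.0483 with RLE normalization, both of which count it as changed. In mCRS mice the value was -0.25 (SE 0.14, interval -0.53 to 0.03, FDR = 0.444), and it was not called under any setting tried. Ldhb was at -0.11 (SE 0.13) in CTR and at -0.28 (SE 0.15, interval -0.58 to 0.02, FDR = 0.387) in mCRS mice. Pkm was at -0.0011 (SE 0.11) and -0.09 (SE 0.12), and Gapdh at 0.10 (SE 0.15) and 0.03 (SE 0.17), so neither differed by more than its error. Of the 10 genes 6 were above 0 in CTR mice, against 48.9% of all genes, and 5 in mCRS mice, against 49.4%. The median over the 10 genes was 0.20 in CTR mice against -0.02 over all genes, and -2.8e-05 in mCRS mice against -0.0079.

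Cell type markers also differed between the regions. The summed level of 8 oligodendrocyte markers had a range of 1890.5 to 6435 CPM in PFC CTR and of 5508 to 8538 CPM in NAc CTR libraries, and of 2758 to 7296 and 5460.2 to 8922 CPM in PFC and NAc mCRS libraries, with 6 and 7 of the 8 markers called lower in the PFC. That of 7 markers of all neurons ranged from 6074 to 9171 CPM in PFC CTR and from 3779 to 5878 CPM in NAc CTR libraries, and from 5807 to 7555 and from 3177 to 4990.1 CPM in mCRS libraries, with 3 of 7 called higher in the PFC in each treatment. For 8 astrocyte markers the medians were 3070 and 2749 CPM in PFC and NAc CTR and 2613 and 2591 CPM in mCRS libraries. Gene by gene, however, 6 of these 8 markers in CTR and 7 of 8 in mCRS mice had a log2 fold change below 0, with medians of -0.39 and -0.45, and 1 marker, Slc4a4, was called lower in the PFC in each treatment. The part of these cell types in the differences of Ldha and Aldoa was not tested.

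The ratio of 2 genes within a library needs no scaling between libraries. It was taken for 5 pairs of isozymes, as the log2 ratio of read counts with 0.5 added to each, and compared in 4 group comparisons, 20 tests in all. A ratio of reads is not a ratio of transcript amounts, since reads per transcript can differ between genes, so only differences between groups are read from it. Of the 20 tests, 4 had an adjusted p below 0.05, those of Ldha/Ldhb and of Aldoa/Aldoc between regions in either treatment.

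The Ldha/Ldhb ratio was lower in the NAc. In CTR mice the log2 ratio ran from -0.88 through a median of 0.06 to 0.51 in the PFC and from -1.91 through -1.24 to -0.18 in the NAc. In mCRS mice it ran from -0.79 through -0.05 to 0.92 in the PFC and from -2.61 through -1.23 to -0.18 in the NAc. Ldhb had more reads than Ldha in all 32 NAc libraries, whereas Ldha had more in 15 of the 30 PFC libraries. The means differed by 1.04 (SE 0.17) in CTR mice (n = 15 and 16, two-sided permutation test, p = 4e-05, adjusted p = 2e-04) and by 1.41 (SE 0.20) in mCRS mice (n = 15 and 16, p = 2e-05, the smallest that 100000 resamples can give, adjusted p = 0.000133). Without NAc CTR replicate 7 and NAc mCRS replicate 10 these were 0.99 and 1.40. Within the libraries numbered 1 to 8 the differences were 1.38 and 1.44, and within those numbered 9 and above 0.67 and 1.39.

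With mCRS the Ldha/Ldhb ratio differed by 0.06 (SE 0.18) in the PFC (p = 0.734 by the permutation test) and by -0.31 (SE 0.19) in the NAc (p = 0.120, adjusted p = 0.343), neither beyond the spread between libraries. The NAc mCRS and NAc CTR groups enter these and the regional comparisons alike, so the values are not independent of each other.

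Aldolase C, the other aldolase of the brain and a marker of astrocytes, went the other way from aldolase A. Aldoc was lower in the PFC, at -0.39 (SE 0.12, FDR = 0.0313 from edgeR) in CTR and -0.43 (SE 0.12, FDR = 0.0191) in mCRS mice. The log2 ratio of Aldoa to Aldoc ran from 1.05 through a median of 1.38 to 2.08 in PFC CTR and from 0.06 through 0.58 to 1.30 in NAc CTR libraries. In mCRS mice it ran from 0.94 through 1.61 to 2.04 in the PFC and from 0.13 through 0.71 to 1.70 in the NAc. The regions overlapped in their extremes and differed in their means by 0.85 (SE 0.11) in CTR and by 0.85 (SE 0.14) in mCRS mice (p = 2e-05 and adjusted p = 0.000133 in both, two-sided permutation test).

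**Figure D3:**
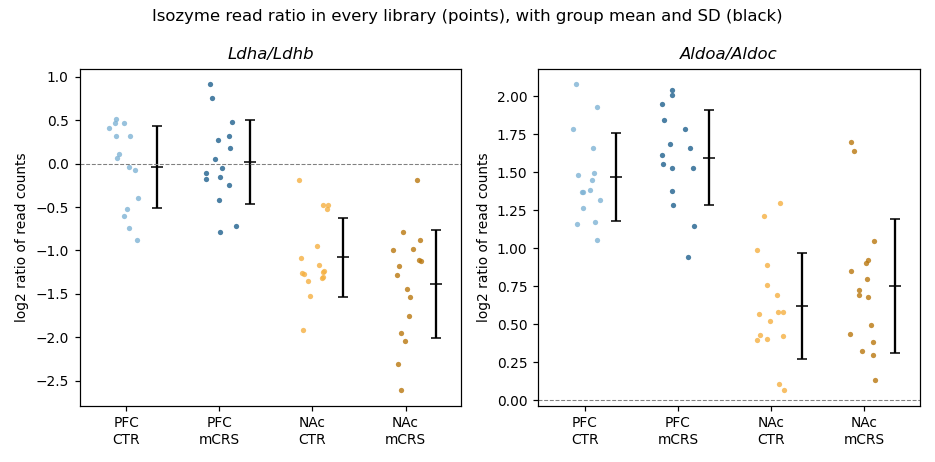
Log2 ratio of read counts of Ldha to Ldhb (left) and of Aldoa to Aldoc (right) in each library (points), with the mean and SD of each group in black and equal read counts as a dashed line. The Ldha/Ldhb ratio was below the line in all 32 NAc libraries, and both ratios were higher in the PFC in CTR and in mCRS mice.

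No other pair had an adjusted p below 0.05 over all libraries. The Eno2/Eno1 ratio differed between regions by -0.11 (SE 0.18) in CTR and -0.12 (SE 0.25) in mCRS mice, and the Pfkm/Pfkp ratio by -0.28 (SE 0.32) and -0.64 (SE 0.29, p = 0.0310, adjusted p = 0.124, permutation test). Pfkp, the platelet-type phosphofructokinase, itself was at 0.56 and 0.60 between regions (FDR = 0.180 and 0.0992 from edgeR). Of the windows of Eno1 62.4% had a perfect copy elsewhere, most of them in Eno1b, which makes its counts uncertain. Hk2, the insulin-responsive hexokinase, was listed at 0 in 7 of 15 PFC CTR, 12 of 15 PFC mCRS, 14 of 16 NAc CTR and 14 of 16 NAc mCRS libraries, so the Hk1/Hk2 ratio rests mostly on the 0.5 added. It differed between regions in CTR mice by -1.96 (SE 0.95, p = 0.0467, adjusted p = 0.156, permutation test), and within the libraries numbered 9 and above by -3.37 (adjusted p = 0.0140, exact permutation test).

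Of 21 further glycolytic enzymes 12 were counted, and 9 of these were tested between regions in either treatment. Besides Aldoc, Tpi1, which interconverts the triose phosphates, was called in both treatments. It was higher in the PFC by 0.53 (SE 0.16, FDR = 0.0373 from edgeR) in CTR and by 0.46 (SE 0.15, FDR = 0.0430) in mCRS mice. These calls lie near the threshold: Tpi1 was called in 20 and 9 of 31 fits that left out a library, with values of 0.47 to 0.60 and 0.40 to 0.48, and Aldoc in 23 and 31 of 31, with values of -0.44 to -0.36 and -0.49 to -0.41. With mCRS none of the enzymes tested was called in either region, and the smallest p values were 0.466 for Aldoc and 0.496 for Tpi1 in the PFC and 0.244 for Tpi1 and 0.313 for Pfkl in the NAc.

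Among genes that handle the products of glycolysis, the cytosolic malate dehydrogenase Mdh1, which passes NADH to mitochondria through the malate-aspartate shuttle, was higher in the PFC. Its lowest, median and highest values were 1020.1, 1441 and 2348 CPM in PFC CTR, 1150.1, 2011 and 3535 CPM in PFC mCRS, 955, 1147 and 1459 CPM in NAc CTR and 509, 1126 and 1487 CPM in NAc mCRS libraries. The difference between regions was 0.39 (SE 0.11, FDR = 0.0228 from edgeR) in CTR and 0.91 (SE 0.13, FDR = 5.51e-07) in mCRS mice. The CTR call was lost without PFC CTR replicate 11 (0.34, FDR = 0.0590). With mCRS Mdh1 was at 0.42 in the PFC (SE 0.14, unadjusted p = 0.00311, FDR = 0.806) and at -0.09 in the NAc, with a difference between regions in the effect of 0.50 (SE 0.17, p = 0.00450, FDR = 0.99998), none of which passed the correction. The other 8 genes of the shuttle list were not called in any of the 4 comparisons.

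Of 14 genes of pyruvate entry into mitochondria 13 were counted. Pdp1, a phosphatase that activates pyruvate dehydrogenase, was higher in the PFC of CTR mice by 0.64 (SE 0.21, FDR = 0.0485 from edgeR), but in only 10 of 31 fits that left out a library. In mCRS mice Pdp1 was at 0.84 (SE 0.28, FDR = 0.0545) and was called in 6 of 31 such fits. Mpc2, a subunit of the mitochondrial pyruvate carrier, was higher in the PFC of mCRS mice by 0.75 (SE 0.19, FDR = 0.00547) in all 31 such fits, and in CTR mice the value was 0.51 (SE 0.22, FDR = 0.196). None of the 13 genes had an unadjusted p below 0.05 for a difference between regions in the mCRS effect (edgeR). Of the transporters of glucose and monocarboxylates, Slc16a7, a transporter of lactate and pyruvate known from neurons, was higher in the PFC of mCRS mice by 3.27 (SE 0.85, FDR = 0.00781), with medians of 29.8 CPM in the PFC and 2.45 CPM in the NAc. In CTR mice it was at 1.76 (SE 0.66, FDR = 0.120), and the test of whether mCRS acted differently in the regions gave 1.49 (FDR = 0.99998), so the treatments cannot be said to differ.

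Among 10 regulators of glycolytic flux, Hif1a, a factor of the hypoxia response, was higher in the PFC of mCRS mice by 1.14 (SE 0.33, FDR = 0.0225 from edgeR), with the call lost in 2 of 31 fits that left out a library (1.05 and FDR = 0.0516 without PFC mCRS replicate 13). In CTR mice it was at 0.16 (FDR = 0.948). Hif1a was at 1.02 with mCRS in the PFC (SE 0.35, unadjusted p = 0.00472, FDR = 0.870) and at 0.06 in the NAc. For a difference between regions in the mCRS effect, none of the 7 regulators tested had an unadjusted p below 0.05 (edgeR). The treatments therefore cannot be said to differ in Hif1a. None of the 7 genes of the pentose phosphate pathway that were tested was called in any comparison, with Pgls at -1.14 (FDR = 0.241) in CTR and G6pdx at -1.71 (FDR = 0.232) in mCRS mice between regions.

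Among the glycogen genes, Pgm1, a phosphoglucomutase, was lower in the PFC of CTR mice by 1.82 (log2 fold change -1.82, SE 0.42, FDR = 0.00232 from edgeR) in all 31 fits that left out a library, and in mCRS mice the value was -1.01 (SE 0.56, FDR = 0.426). None of the 8 glycogen genes tested had an unadjusted p below 0.05 for a difference between regions in the mCRS effect (edgeR). The call of Ugp2, which makes UDP-glucose, in CTR mice was kept in 26 of 31 fits that left out a library. Its size rested on a single library. Ugp2 was at 1.52 between regions in CTR mice (SE 0.47, FDR = 0.0346) and at 0.12 (FDR = 0.962) without PFC CTR replicate 3, and its highest value in that group was 2681 CPM against a median of 113 CPM. The value of Ugp2 with mCRS in the PFC, -1.44 (SE 0.51, unadjusted p = 0.00650, FDR = 0.898), moved to -0.03 without the same library.

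With mCRS, no gene of these 7 lists was called in either region. In the PFC, the unadjusted p was below 0.05 for Hif1a, Ugp2 and Mdh1 as given above. The next smallest p of each list belonged to Prkaa1, a catalytic subunit of the energy sensor AMPK (0.84, SE 0.90), to Gbe1, the glycogen branching enzyme (1.18, SE 1.01), and to Got2, the mitochondrial aspartate aminotransferase (-0.40, SE 0.41). Of the lists with no p below 0.05 there, the lowest were those of Emb (-0.53, SE 0.60) and the neuronal glucose transporter Slc2a3 (-0.17, SE 0.33), of Mpc2 (0.37, SE 0.20) and Pdhb (0.28, SE 0.25), and of Pgls (0.79, SE 0.68) and Rpe (-0.95, SE 1.0004). These differences lay within 2 SE of 0.

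In the NAc, Slc16a7 alone of the 7 lists had an unadjusted p below 0.05 with mCRS (-1.75, SE 0.81, p = 0.0358, FDR = 0.9999 from edgeR). The glucose transporter Slc2a1 was at -0.52 (SE 0.38), and the bifunctional enzymes Pfkfb2 and Pfkfb4, which set the level of the phosphofructokinase activator fructose 2,6-bisphosphate, were at -1.16 (SE 0.80) and -1.24 (SE 0.88). Pdhb and Pdhx of the pyruvate dehydrogenase complex were at 0.23 (SE 0.19) and 0.57 (SE 0.48). The shuttle enzymes Mdh2 and Got1 were at 0.24 (SE 0.16) and 0.17 (SE 0.15). Of the remaining lists, G6pdx was at 0.63 (SE 0.54), Rpia at -0.96 (SE 0.83) and Ugp2 at -0.38 (SE 0.37).

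Between regions, genes of smallest p in lists without a call were not past the correction either. In CTR mice Pfkfb3 was at -2.28 (SE 0.99, FDR = 0.218 from edgeR), Prkaa2 at 0.79 (SE 0.46, FDR = 0.469), Bsg, a partner protein of the lactate transporters, at -0.29 (SE 0.12, FDR = 0.187) and Rpia at -0.89 (SE 0.90, FDR = 0.781). In mCRS mice Pygb, the brain glycogen phosphorylase, was at -0.57 (SE 0.32, FDR = 0.443) and Rpe at -1.05 (SE 0.99, FDR = 0.749).

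**Figure D4:**
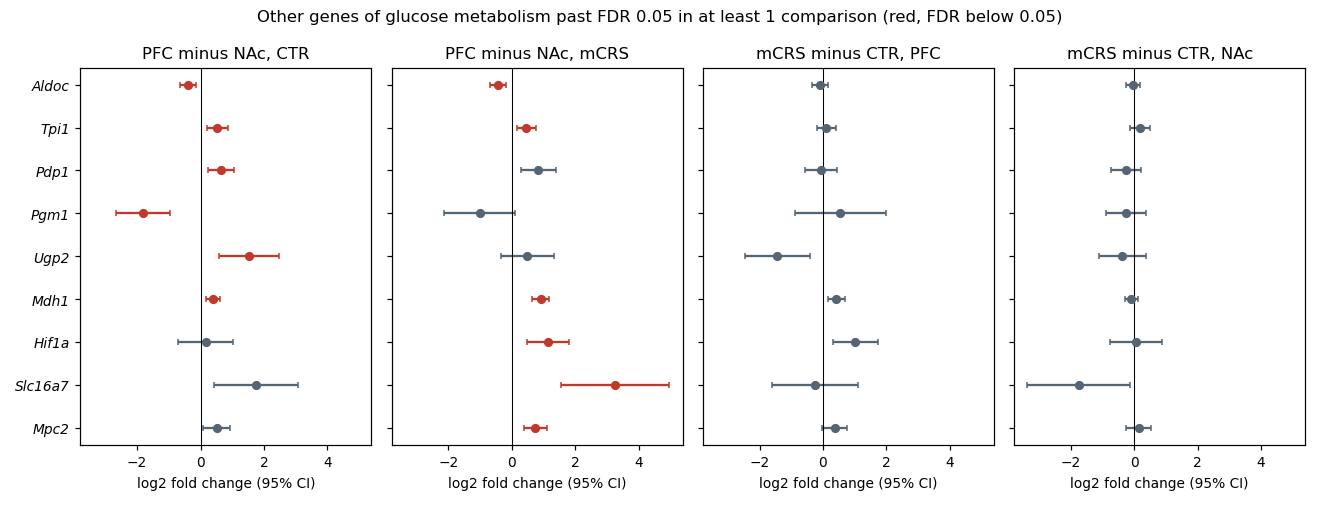
Log2 fold changes (points) with 95% confidence intervals (bars) for the 9 genes of the other lists that passed an FDR of 0.05 in at least 1 of the 4 comparisons, with calls in red. Aldoc, Tpi1 and Mdh1 were called between regions in both treatments, and no gene was called for mCRS.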

How the data were processed

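RNA of the PFC and the NAc was sequenced by BRB-seq, and the authors mapped reads with STAR to GRCm38, kept uniquely mapped reads and counted them for each gene with htseq (version 0.9.1 in the submitters' processing notes, a different version in the methods). The deposited values are these raw counts, without normalization and without molecular identifiers. Samples of poor sequencing quality had been removed by the authors. Symbols matched 11120 of 11121 Ensembl identifiers, and coordinates are those of GENCODE vM21 on GRCm38. The 10 genes and all gene lists were chosen with earlier results of these data known.

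Each comparison was fitted on its own libraries with edgeR 4.0.16 (R 4.3.3): TMM normalization, filterByExpr and the quasi-likelihood test, with Benjamini-Hochberg FDR over all genes tested and calls at an FDR below 0.05. Levels are log2 CPM with TMM over all 62 libraries and a prior count of 2. Isozyme ratios were compared by permutation tests with 100000 resamples, adjusted over 20 tests (scipy). By the study's methods the PFC and the NAc were dissected from the same animals, but the mapping of libraries to mice is not given in the sources used here. The main regional tests therefore treat the libraries as unpaired, and p values measure the spread between libraries. Named are all 10 genes in every comparison and, of each other list, up to 4 genes at an FDR below 0.05, or the 2 of smallest p where none passed (1 such gene is not reported here). Alternatives were DESeq2 1.42.0, RLE, library sizes that leave out mtDNA genes, a filter of 10 counts in 50% of libraries or none, covariates, a replicate block, all 62 libraries in 1 fit, and leaving out each library. Leaving out the NAc libraries that stand apart was chosen after seeing the data. The fits were tested on simulated counts. Counting SDs take no account of PCR copies. All deposited sample columns were used.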

Additional observations from a re-analysis of the deposited data

How the results depend on the processing

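The numbers of glycolysis genes called (0 and 0 for mCRS in the PFC and the NAc, 2 and 2 between regions in CTR and mCRS mice, 0 for the difference of effects) kept within 1.5 times under every setting run, at 3 in CTR mice with DESeq2 and with RLE normalization, where Eno2 was added at -0.40 in both, and at 0, 0, 2 and 2 in every fit that left out a library. Same-numbered PFC and NAc libraries did not deviate together from their group means. Their correlations were -0.0154 to 0.0246 in CTR and -0.0257 to 0.0204 in mCRS mice. With no pair known to be from 1 mouse, this cannot show whether the numbers mark mice. With the number as a block, which for mCRS against CTR joins different mice, the counts were 0, 0, 2, 2 and 0. Ldha and Aldoa were called in all 10 alternatives of either regional comparison, with 0.88 to 0.99 and 0.94 to 1.06 for Ldha and 0.40 to 0.45 and 0.34 to 0.43 for Aldoa. The values that changed sign, given next, were not past the threshold in the main tests, and the cause was not tested. For mCRS in the PFC, Ldha was at -0.0078 without a filter, -0.040 with a covariate for the genes detected and -0.0028 with all 62 libraries in 1 fit, and Ldhb at -0.16 with that covariate and -0.031 with the block. Leaving out libraries gave -0.047 to 0.063 for Ldha, -0.057 to 0.075 for Ldhb and -0.31 to 0.034 for Pgk1, and in the NAc -0.076 to 0.041 for Gpi1 and -0.022 to 0.051 for Pkm. Between regions in CTR mice, Pkm was at 0.0056 without mtDNA genes in the library size, 0.0064 without a filter, 0.0062 with the stricter filter, 0.082 with the share of genes detected, 0.0030 with the split of the numbers as a covariate and 0.044 with the block, and -0.034 to 0.034 over left-out libraries. In mCRS mice, Gpi1 was at -0.024 with DESeq2 and -0.025 with RLE, Gapdh at -0.057 with both and -0.031 with the block, Pgk1 at -0.039 with the block and Pfkm at 0.0056 without NAc mCRS replicate 10. Left-out libraries gave -0.079 to 0.070 for Gapdh, -0.013 to 0.11 for Gpi1, -0.15 to 0.0095 for Hk1 and -0.099 to 0.017 for Pfkm. Of the ratios, 4 of 20 passed under each setting, and 5 within numbers 9 and above, where Hk1/Hk2 between regions in CTR mice was added at -3.37. With mCRS and numbers 1 to 8, Ldha/Ldhb was at -0.27 and Pfkm/Pfkp at 0.087 in the PFC and Pfkm/Pfkp at -0.25 in the NAc. With numbers 9 and above, Hk1/Hk2 was at -0.66, Aldoa/Aldoc at -0.044 and Eno2/Eno1 at 0.14 in the NAc, Eno2/Eno1 at 0.092 in the PFC and Pfkm/Pfkp at 0.26 between regions in CTR mice. Hk1/Hk2 was at -0.13 in the NAc without the libraries that stand apart.

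Counts over all genes moved more. For mCRS in the PFC 0 genes were called, but 5 with DESeq2, 5 with all 62 libraries and 1 each without a filter and with the block, and 314 genes at an unadjusted p below 0.05 became 540 with all 62 libraries and 185 with the share of genes detected. In the NAc 1 call became 0 to 2, and 207 became 338 with DESeq2. For the difference of effects 1 call became 0 with the stricter filter and with the block. Of the genes called between regions in mCRS mice 69.1% were higher in the PFC, and 58.3% with DESeq2. Counts of 1 for Pgk1 and of 0 for Hk2 in some libraries limit both, and glycolytic flux, protein and enzyme activity were not measured here.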
